A study of Mus musculus with 15 samples.

Results

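The genes described here are 7 that mark hepatic stellate cells and the myofibroblasts they can become: Lrat, Reln, Des, Pdgfrb, Acta2, Tagln and Timp1. They and the lists of related genes below were chosen by name, with earlier results of these data known. The symbols of the 7 were matched to the Ensembl IDs of the deposited count table. All 7 were found among its 55450 gene IDs, and all 7 were among the 15808 genes that passed a filter on low counts, Timp1 only through the mice of 22 months.

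Stellate cells lie between the hepatocytes and the sinusoidal endothelium, store vitamin A as retinyl ester droplets and wrap the sinusoids as pericytes. After liver injury they can lose their droplets, divide and turn into contractile myofibroblasts that lay down collagen and inhibit its breakdown, which is how a liver scars. Lrat, Reln and Des are read as marks of the resident cell, Pdgfrb as a receptor that both states carry, and Acta2, Tagln and Timp1 as marks of the activated state. Des, Acta2 and Tagln are also made by smooth muscle of the vessel wall, and Des by skeletal muscle.

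Liver mRNA was sequenced from 15 female C57BL/6 mice, 1 library per mouse, in 3 groups of 5. Adult mice, numbered A1 to A5, began the study at 6 months of age and Old mice, O1 to O5, at 22 months, and both took corn oil by gavage. PDX mice, P1 to P5, began at 22 months too and were gavaged each day with protectin DX, a lipid mediator made from docosahexaenoic acid, at 30 ng per g of body weight. Gavage lasted 9 weeks by the sample labels and 8 weeks by the series text. All mice thus shared sex, strain and daily gavage, Old and Adult differed in age, and PDX and Old differed in the compound. Comparisons between Old and Adult ask what age did to these genes, and comparisons between PDX and Old ask whether the compound altered them in aged mice.

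Counted read pairs per library ran from 22424383 to 36070835 in Adult, 25480180 to 29069346 in Old and 26113995 to 30139181 in PDX mice. Levels are given as CPM, the usual unit for the counts of a gene relative to all counted pairs of its library, after scaling by TMM factors, which ran from 0.884 to 1.33, the highest being that of O2. The tissue carried the markers of liver: 8 hepatocyte genes summed to between 62317 and 204831 CPM, with the lowest sum in O5 and the highest in O1. O2 and O5 are the Old mice that stood apart from the rest. O2 had the highest summed level of 8 macrophage genes, 2206 CPM against 264 to 920 in the other 14 mice, and O5 the highest sum of 8 cholangiocyte genes. Differences were tested with the quasi-likelihood test of edgeR in 1 fit of all 15 mice, and every adjusted p below is from that test with Benjamini-Hochberg adjustment over all 15808 genes unless another test is named. A gene was called at an adjusted p below 0.05, or below 0.25 between PDX and Old.

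In aged livers Tagln, Acta2 and Des were called higher. The lower level of the retinoid-storage gene Lrat (log2 fold change -0.81, adjusted p = 0.0799) was not called. Of the 6 genes that also reached the level of the filter in Adult mice, 3 were called higher in Old than Adult mice, namely Tagln (2.32-fold), Acta2 (2.18-fold) and Des (1.80-fold), and 0 of 7 were called lower, where 6.78% of all genes tested were called, 4.71% higher and 2.07% lower. Among the 15492 genes for which at least 1 Adult mouse reached the filter's level of 0.367 CPM, 4.04% were called higher. Timp1 was called too (13.6-fold), but no Adult mouse reached that level, so it could enter the test only by being higher in the other groups and is left out of that count. Lrat, Reln and Pdgfrb did not pass the test. Without O2 and O5, when 1158 genes of the whole table were called, 2 of the 7 were, Acta2 and Tagln. Without any 1 of the Adult mice, when 156 to 243 genes of the whole table were called, Tagln alone was. The median log2 fold change of the 6 genes was 0.70, and that of all genes tested was 0.07. Because the genes were chosen with earlier results of these data known, these shares and medians only describe them. They do not test whether such genes were called more often than others. Between PDX and Old mice 0 of the 7 were called by edgeR, none had an unadjusted p below 0.05, and 0% of all genes tested were called. In a tissue of many cell types, more cells of a type and more RNA per cell cannot be told apart.

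**Figure D1:**
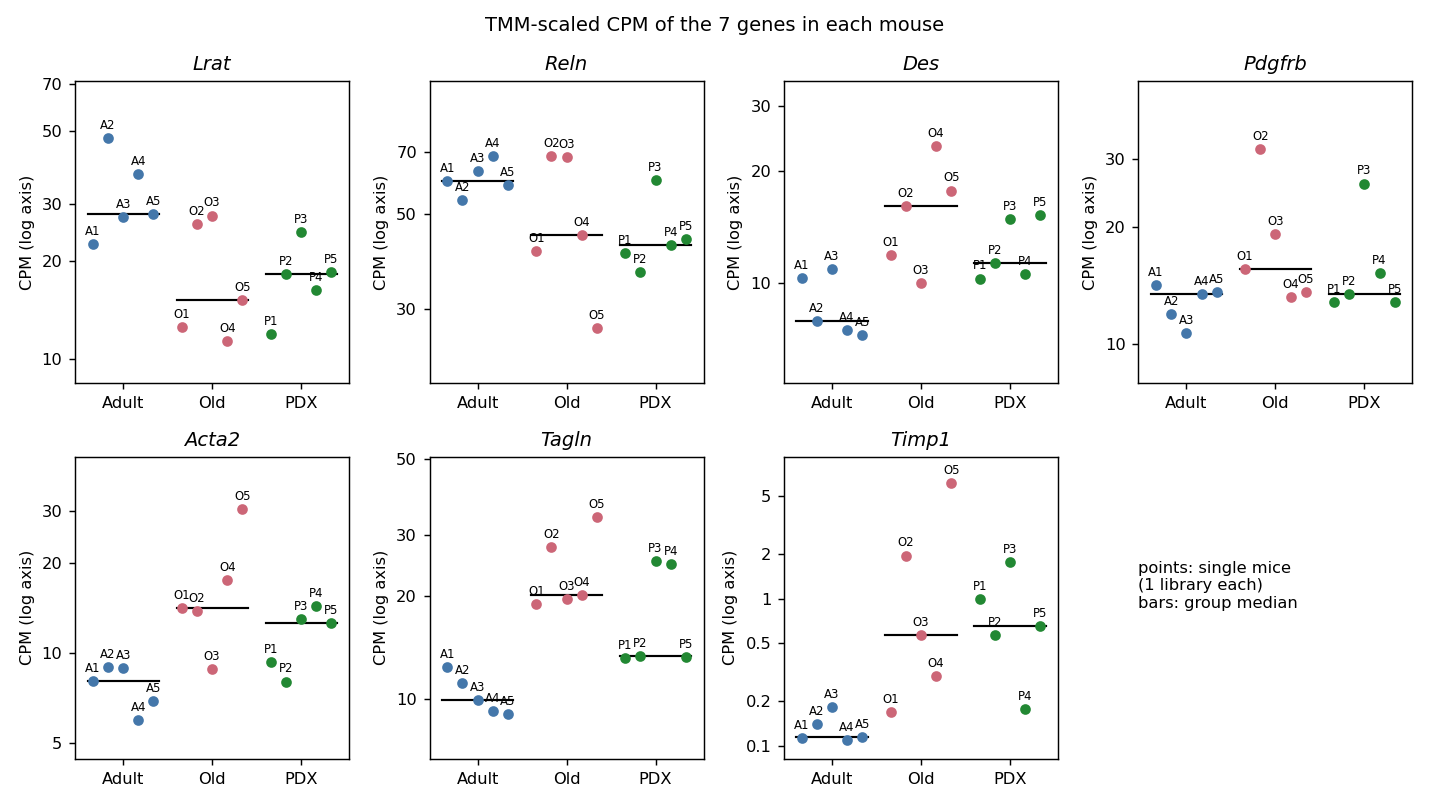
TMM-scaled CPM on a log axis of each of the 7 genes, with 1 point per mouse, labelled by mouse, and a bar at the group median. Tagln of the Old mice lies wholly above that of the Adult mice, whereas Acta2, Des and Timp1 each have 1 Old mouse within or below the Adult range.

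Lrat encodes lecithin retinol acyltransferase, the enzyme that turns retinol into the ester stored in the droplets, and lies at chr3:82892579-82903973 on the minus strand of GRCm38. Adult mice A1 to A5 had 22.6, 47.7, 27.2, 37.0 and 27.9 CPM. In O1 to O5 the level was 12.5, 25.98, 27.6, 11.3 and 15.2 CPM, and in P1 to P5 it was 11.9, 18.2, 24.6, 16.2 and 18.4 CPM. O1, O4 and O5 lay below every Adult mouse while O2 and O3 lay inside the Adult range, so the groups overlapped. The difference between Old and Adult was -0.81 (SE 0.28) on the log2 scale with an adjusted p of 0.0799 and was not called. It was called without O3 (log2 fold change -1.0, adjusted p = 0.0343) and by the Wald test of DESeq2 (-0.81, adjusted p = 0.0443). In those settings 2178 and 2604 genes of the whole table were called, against 1072 in the main fit. PDX mice were 0.05 lower than Old mice on the log2 scale, with a 95% confidence interval from -0.64 to 0.54 and an adjusted p of 0.970. Against Adult mice the PDX difference was -0.86 (SE 0.28, adjusted p = 0.107).

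Reln, the gene of the secreted glycoprotein reelin, which stellate cells make in liver, lies at chr5:21884454-22344702 on the minus strand. Its level in A1 to A5 was 59.8, 54.1, 63.1, 68.6 and 58.6 CPM. Old mice gave 41.0, 68.4, 68.1, 44.7 and 27.1 CPM in O1 to O5, and PDX mice 40.5, 36.6, 60.1, 42.3 and 43.7 CPM in P1 to P5. The Adult mice were close to each other, whereas Old mice fell into O2 and O3 at the Adult level and O1, O4 and O5 below it, the same split as for Lrat. P3 was likewise the highest PDX mouse for both genes. Reln differed by -0.29 between Old and Adult (SE 0.22, adjusted p = 0.409) and by -0.16 between PDX and Old (95% confidence interval -0.62 to 0.30, adjusted p = 0.860) on the log2 scale. The difference between PDX and Adult was -0.45 (SE 0.22, adjusted p = 0.257). None of these was called.

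Des encodes desmin, an intermediate filament protein of muscle and of rodent stellate cells, at chr1:75360329-75368579 on the plus strand. A1 to A5 had 10.3, 7.86, 10.9, 7.46 and 7.23 CPM. O1 to O5 had 11.9, 16.1, 9.99, 23.3 and 17.7 CPM, and P1 to P5 had 10.3, 11.3, 14.8, 10.6 and 15.2 CPM. O3 alone of the Old mice lay within the Adult range, and O4 was the highest of all 15. Des rose by 0.85 on the log2 scale in Old mice (SE 0.22, adjusted p = 0.0346). The call ended without any 1 of the 5 Adult mice and without O2 or O4, with log2 fold changes from 0.67 to 0.94 and adjusted p from 0.0515 to 0.0901. Without O2 and O5 together it was 0.80 with an adjusted p of 0.0680. PDX mice lay between, 0.34 below Old on the log2 scale (95% confidence interval -0.81 to 0.12, adjusted p = 0.793) and 0.51 above Adult (SE 0.22, adjusted p = 0.203), and neither difference was called.

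Transcripts of skeletal muscle were found in these livers too, at levels that varied widely between mice. Summed over 8 skeletal muscle markers, of which 7 passed the filter on low counts and 0 were at 0 in all mice, the level ranged from 0.805 to 43.8 CPM in Adult, from 0.721 to 227.6 CPM in Old and from 5.78 to 56.5 CPM in PDX mice. A1 and A3 were highest in Adult, O4 and O2 in Old, and P5 and P3 in PDX. Those mice also held the highest Des of their group, except that O5, which had the lowest sum of all, had more Des than O2. Acta1, the skeletal muscle actin, reached 67.2 CPM in O4 and was at 0 in A2 and A4. With the summed markers as a covariate, an alternative chosen after these values were seen, Des differed by 0.76 between Old and Adult on the log2 scale with an adjusted p of 0.0262 by edgeR. That fit called 775 genes of the whole table, against 1072 in the main fit. In the main fit none of the 7 muscle markers tested was called between Old and Adult, and 0 had an unadjusted p below 0.05. The part of skeletal muscle in the level of Des was not tested.

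**Figure D2:**
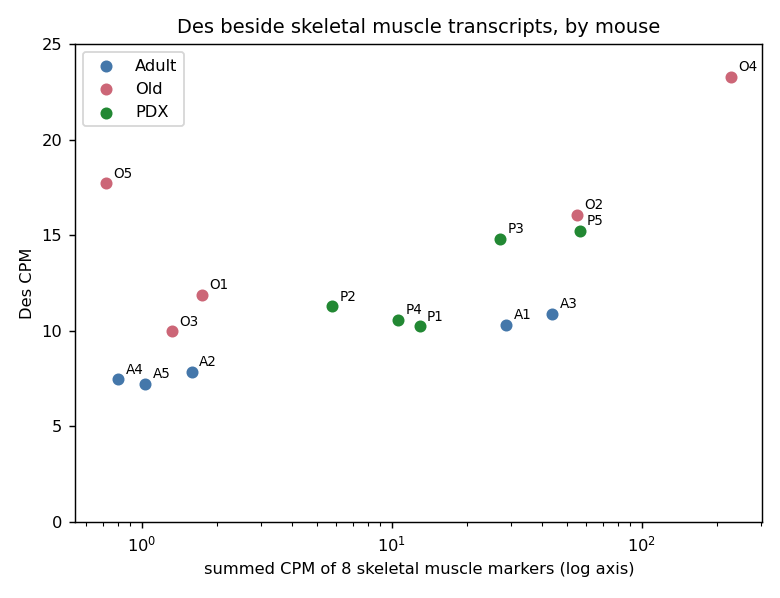
Des in CPM against the summed CPM of 8 skeletal muscle markers on a log axis, 1 point per mouse. O4 is highest on both axes, and O5 has 17.7 CPM of Des at a muscle sum of 0.721 CPM.

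Pdgfrb encodes the receptor through which platelet-derived growth factor acts on stellate cells and pericytes, and lies at chr18:61045150-61085061 on the plus strand. Its level was 14.1, 11.9, 10.7, 13.5 and 13.6 CPM in A1 to A5. In O1 to O5 it was 15.6, 31.8, 19.1, 13.2 and 13.6 CPM, and in P1 to P5 12.8, 13.4, 25.9, 15.2 and 12.8 CPM. O2 and P3 stood far above the other mice of their groups, and O4 and O5 lay inside the Adult range. The difference of 0.55 on the log2 scale between Old and Adult (SE 0.25, adjusted p = 0.168) was not called and was 0.28 without O2. PDX differed from Old by -0.22 (95% confidence interval -0.75 to 0.31, adjusted p = 0.844), which became 0.06 without O2, and from Adult by 0.33 (SE 0.25, adjusted p = 0.487).

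Acta2 encodes alpha smooth muscle actin, the protein most used to stain activated stellate cells. It lies at chr19:34241090-34255590 on the minus strand. A1 to A5 had 8.07, 8.98, 8.89, 5.96 and 6.89 CPM. Old mice O1 to O5 had 14.2, 13.8, 8.82, 17.5 and 30.3 CPM, and PDX mice P1 to P5 had 9.35, 8.03, 13.0, 14.4 and 12.6 CPM. O5 had the highest level of all mice, O3 lay inside the Adult range, and the other 3 Old mice were above every Adult mouse. Acta2 rose by 1.13 on the log2 scale in Old mice (SE 0.27, adjusted p = 0.0293). It was called without any 1 of the Old mice and without O2 and O5 together (0.81, adjusted p = 0.0465), and not called without any 1 of the 5 Adult mice, with adjusted p from 0.0634 to 0.0773. In PDX mice Acta2 was 0.56 lower than in Old mice (95% confidence interval -1.13 to 0.01, adjusted p = 0.793), a difference that was not called, and 0.57 higher than in Adult mice (SE 0.27, adjusted p = 0.2502). The actin proteins are near-identical. Only uniquely aligned pairs were counted, so any pair that matched Acta2 and Acta1, Actc1 or Actg2 equally well was left out. How many such pairs there were was not tested.

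Tagln encodes transgelin, an actin-binding protein of smooth muscle and myofibroblasts, at chr9:45929619-45936058 on the minus strand. Its level in A1 to A5 was 12.3, 11.1, 9.94, 9.22 and 9.01 CPM. O1 to O5 had 18.9, 27.7, 19.5, 20.1 and 33.9 CPM, and P1 to P5 had 13.2, 13.3, 25.3, 24.7 and 13.3 CPM. Every Old mouse and every PDX mouse lay above every Adult mouse, while the PDX group split into P3 and P4 within the Old range and P1, P2 and P5 just above the Adult range. Groups without overlap were found for 3.65% of all genes as higher in Old than Adult and for 10.5% as higher in PDX than Adult. Tagln rose by 1.22 on the log2 scale in Old mice (SE 0.23, adjusted p = 0.0142) and was called in each of the 10 fits that left out 1 mouse of the 2 groups. Its difference between PDX and Old was -0.42 (95% confidence interval -0.91 to 0.07, adjusted p = 0.793) and was not called. PDX mice were 0.80 higher than Adult mice (SE 0.23), which edgeR did not call (adjusted p = 0.0776) and the Wald test of DESeq2 did (0.80, adjusted p = 0.0260). There DESeq2 called 1384 genes of the whole table and edgeR 420. The exons of Tagln share 1241 bases with Gm48529 and 108 with Pcsk7 on the opposite strand, and the counting used strand.

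Timp1 encodes a secreted inhibitor of matrix metalloproteinases, and lies at chrX:20870166-20874735 on the plus strand, within the span of Syn1 on the opposite strand but with 0 shared exon bases. It was near the limit of detection in young livers, and it passed the filter on low counts only through Old and PDX mice. A1 to A5 held 4, 4, 4, 3 and 4 counted pairs, or 0.112, 0.141, 0.182, 0.110 and 0.115 CPM. O1 to O5 held 4, 67, 15, 8 and 170 pairs (0.170, 1.96, 0.565, 0.297 and 6.13 CPM), and P1 to P5 held 25, 14, 56, 5 and 19 pairs (0.986, 0.562, 1.77, 0.179 and 0.654 CPM). With Old and Adult mice alone it did not pass the filter and had no test. O5 and O2 carried most of the Old signal, O1 lay in the Adult range, and P3 was again the highest PDX mouse. In the fit of all 15 mice Timp1 was 3.77 higher on the log2 scale in Old mice (SE 0.91, adjusted p = 0.0292), and 2.51 higher without O5. Without O2 and O5 together the value was 1.40 with an adjusted p of 0.202, and the call also ended without any 1 of the 5 Adult mice, with adjusted p from 0.0646 to 0.0746. The difference between PDX and Old was -1.13 (95% confidence interval -2.78 to 0.52, adjusted p = 0.793), and it turned to 1.26 without O2 and O5. PDX mice were 2.64 higher than Adult mice on the log2 scale (SE 0.90, adjusted p = 0.122), not called with all mice. Timp1 was called there without O2 and O5 (2.66, adjusted p = 0.00377), when 4004 genes of the whole table were called.

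**Figure D3:**
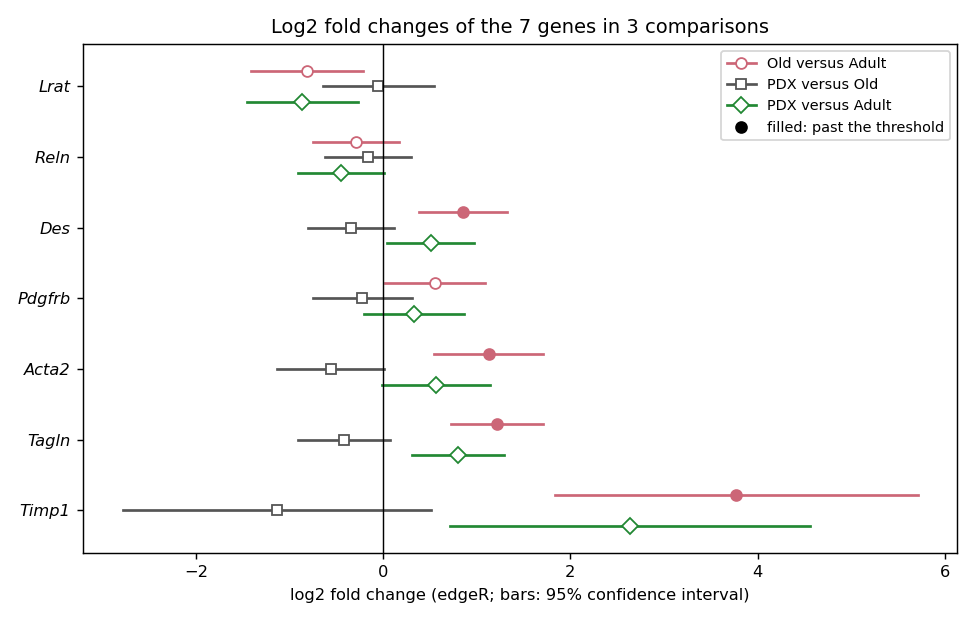
Log2 fold changes of the 7 genes by edgeR with 95% confidence intervals in 3 comparisons, with filled symbols for those past the threshold. The 4 filled symbols are Des, Acta2, Tagln and Timp1 between Old and Adult, and the intervals of all 7 genes between PDX and Old include 0.

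Between PDX and Old, all 7 point estimates were below 0, with a median log2 fold change of -0.34 against -0.07 for all genes tested. The test of edgeR called 0 genes of the whole table there, 5.28% of genes had an unadjusted p below 0.05, and DESeq2 called 1 gene. The intervals of Acta2 and Timp1 reach to falls of more than 1 on the log2 scale and also take in 0, so falls of that size could not be told from no change among these mice. Between PDX and Adult 0 of 7 were called, where 2.66% of all genes were called, 1.76% higher and 0.898% lower. Both comparisons of the PDX mice share animals with the comparison of Old and Adult mice.

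Levels of different genes can be set beside each other only per length. In RPKM, which is CPM divided by the kilobases of the union of exons, Lrat led in Adult mice at 6.07 ± 1.86 (SD, n = 5), followed by Tagln at 5.20 ± 0.70, Acta2 at 3.53 ± 0.60, Reln at 2.56 ± 0.23, Des at 2.33 ± 0.46, Pdgfrb at 2.33 ± 0.26 and Timp1 at 0.149 ± 0.035. Lrat and Tagln overlapped each other and lay above every other gene in all Adult mice, the next 4 genes overlapped their neighbours, and Timp1 lay below them all. In Old mice Tagln led at 12.1 ± 3.32 RPKM and Acta2 came next at 7.71 ± 3.69. Des followed at 4.21 ± 1.39, Lrat at 3.46 ± 1.44, Pdgfrb at 3.41 ± 1.41, Reln at 2.10 ± 0.76 and Timp1 at 2.06 ± 2.83, and each gene of that order overlapped the next in range. The PDX mice kept Tagln first at 9.03 ± 3.24 RPKM and Acta2 second at 5.23 ± 1.22, with Lrat at 3.34 ± 0.85, Des at 3.31 ± 0.64, Pdgfrb at 2.93 ± 1.03, Reln at 1.88 ± 0.38 and Timp1 at 0.934 ± 0.673. The PDX range of Tagln lay above that of Acta2, and the other neighbours overlapped. With the longest transcript as the length, Tagln in Adult mice read 6.48, Lrat 6.07, Reln 5.20 and Des 2.89 RPKM. By that length Tagln led, and the range of Reln overlapped those of Lrat and Tagln. The places of Lrat, Tagln and Reln thus depend on the length used.

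**Figure D4:**
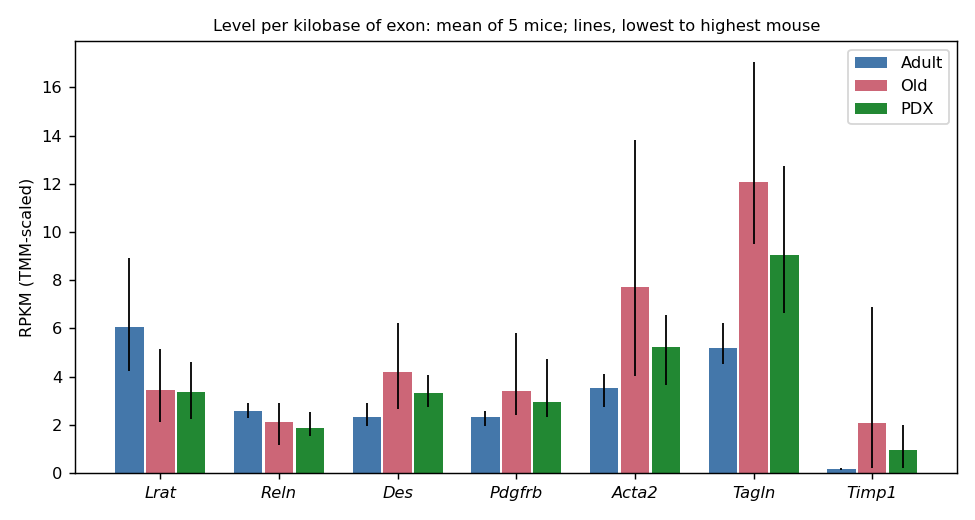
Mean RPKM of 5 mice per group for each of the 7 genes, with lines from the lowest to the highest mouse. Lrat is the tallest Adult bar at 6.07, and Tagln is the tallest in Old and PDX mice at 12.1 and 9.03.

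Regulatory sequence is shown for the called genes Acta2, Des and Timp1. SRF, the factor that drives contractile genes, binds the CArG box, and bHLH factors bind CANNTG. Promoter windows came from RefSeq on GRCm38.p6, and 5 of the 7 genes had an entry. Tagln and Pdgfrb had none, so the called gene Tagln was not searched. The 250 bases before each start were searched on both strands for the CArG box, for TATAAA and for CANNTG. Acta2, Des, Lrat, Reln and Timp1 held no strict CArG box, which 1.47% of 32851 windows held. A wider search that let 1 base depart from the box, chosen after the strict search was seen, found 2 sites in Acta2 and 1 in Lrat, and such sites were in 8.59% of windows. TATAAA was in 12.4% of windows and in none of the 5, and CANNTG in 66.2% of windows, with 2 in Des, 1 each in Lrat and Reln, 3 in Acta2 and 0 in Timp1. The sites of Acta2 are printed as 30 bases each with the box in capitals, at chr19:34255438-34255467 and chr19:34255388-34255417 on the minus strand, which is -94 to -65 and -44 to -15 from the RefSeq start and inside the first exon of the longer GENCODE model. Neither box overlaps a CANNTG. For Des the window is chr1:75360042-75360291 on the plus strand with CANNTG in capitals, and for Timp1 it is chrX:20869916-20870165 on the plus strand, with no match and so no capitals. A match describes letters and not a bound site.
Acta2 site at -94: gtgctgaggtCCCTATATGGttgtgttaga
Acta2 site at -44: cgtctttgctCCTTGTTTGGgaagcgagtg
Des: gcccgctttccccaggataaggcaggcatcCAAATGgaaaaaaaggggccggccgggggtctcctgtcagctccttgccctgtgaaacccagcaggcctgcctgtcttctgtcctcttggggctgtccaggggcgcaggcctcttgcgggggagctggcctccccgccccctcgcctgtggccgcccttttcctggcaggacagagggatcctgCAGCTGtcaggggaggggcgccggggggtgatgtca
Timp1: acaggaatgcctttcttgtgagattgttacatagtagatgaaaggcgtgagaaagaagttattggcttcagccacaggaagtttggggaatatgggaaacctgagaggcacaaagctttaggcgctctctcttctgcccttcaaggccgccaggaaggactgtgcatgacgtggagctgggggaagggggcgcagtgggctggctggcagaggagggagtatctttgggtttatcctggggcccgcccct

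Other marks of the resident stellate cell moved in both directions in aged mice. Of 20 further identity genes, all of which passed the filter, 3 were called higher and 2 lower in Old than Adult mice, and the median log2 fold change was -0.03. Over all genes tested 4.71% were called higher and 2.07% lower. Cygb, the globin of stellate cells, rose from 14.2 ± 1.26 to 25.8 ± 5.08 CPM (SD, n = 5, log2 fold change 0.86), and Adamtsl2, a secreted matrix protein, from 6.22 ± 0.385 to 22.1 ± 7.23 CPM (1.83). Ecm1, a secreted inhibitor of TGF-beta activation, fell from 244.7 ± 14.8 to 155.5 ± 9.97 CPM, and Vipr1, a receptor for vasoactive intestinal peptide, from 57.7 ± 5.21 to 38.5 ± 4.00 CPM. These 4 genes were all called, and for each no Old mouse lay within the Adult range. Cygb and Adamtsl2 lay wholly higher in Old mice, as did 3.65% of all genes tested. The share of genes wholly lower, as Ecm1 and Vipr1 were, is not reported here. Adamtsl2, Ecm1 and Vipr1 were also called in the same directions between PDX and Adult mice, at log2 fold changes of 2.03, -0.83 and -0.60. In that comparison 1.76% of all genes were called higher and 0.898% lower. Gfap (log2 fold change 0.15, adjusted p = 0.860), Ngfr (-0.12, 0.869) and the growth factor Hgf (0.01, 0.990) did not pass the test between Old and Adult.

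Retinoid genes, the partners of Lrat in storage, transport and breakdown of vitamin A, gave 2 of 20 tested called higher in Old mice, among them the lipase Lpl, and 0 lower, at a median log2 fold change of -0.22. The shares over all genes were 4.71% higher and 2.07% lower. Rbp4, the plasma carrier of retinol made by hepatocytes, was at 2570 ± 84.0 CPM in Adult and 2021 ± 638.7 CPM in Old mice (adjusted p = 0.295). Rdh10, which starts the oxidation of retinol, stood at 37.9 ± 3.42 and 26.3 ± 9.25 CPM (adjusted p = 0.127). Cyp26a1, which degrades retinoic acid, varied widely between Adult mice at 162.1 ± 162.9 CPM and was at 72.5 ± 32.8 CPM in Old mice (adjusted p = 0.247).

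Reelin's pathway had 5 of 7 genes tested and 0 called in any of the 3 comparisons. Vldlr, a reelin receptor that also takes up lipoproteins, was at 23.5 ± 5.60 CPM in Adult, 8.97 ± 7.16 CPM in Old and 7.46 ± 3.00 CPM in PDX mice, with an adjusted p of 0.0647 between Old and Adult and of 0.0601 between PDX and Adult. Lrp8, the other receptor, did not pass the filter on low counts.

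Ligands and the sister receptor of Pdgfrb also gave 0 of 6 called between Old and Adult, with a median log2 fold change of 0.71. Pdgfb, its main ligand, was at 2.42 ± 0.17 CPM in Adult mice and 7.27 ± 8.13 CPM in Old mice, where O2 alone had 21.7 CPM (log2 fold change 1.59, adjusted p = 0.0651). Pdgfa differed by 1.17 (adjusted p = 0.0751), Pdgfra by 1.04 (adjusted p = 0.0701), Pdgfc by 0.38 (adjusted p = 0.587) and Pdgfd by 0.22 (adjusted p = 0.666). O2 was thus the highest Old mouse for both Pdgfb and Pdgfrb.

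Of 17 myofibroblast genes tested, 5 were called higher in Old mice and 0 lower, where 4.71% of all genes were called higher and 2.07% lower. Their median log2 fold change was 1.37 against 0.07 for all genes. Vim, an intermediate filament of mesenchymal cells, rose from 28.0 ± 4.21 to 68.8 ± 45.6 CPM, with 148.8 CPM in O2 and 39.7 to 62.5 CPM in the other Old mice. Col1a1, the chain of type I collagen that forms scar, rose from 11.5 ± 1.43 to 68.3 ± 73.4 CPM. Col1a1 read 15.5, 90.1, 26.6, 21.3 and 188.0 CPM in O1 to O5 and 21.6, 14.1, 64.0, 17.0 and 16.8 CPM in P1 to P5, so O5, O2 and P3 led it as they led Timp1. S100a6 (log2 fold change 2.16) and Ccn2, a matrix signalling protein (1.54), were also called. Col3a1 (1.37, adjusted p = 0.0651) and Thy1 (1.19, adjusted p = 0.0832) were not. Of the 17, 16 had a log2 fold change above 0, and that of Postn was below 0 (-0.29, adjusted p = 0.650). Postn was also lower in PDX than Adult mice (-1.32, adjusted p = 0.0776), which was not called. Between PDX and Adult, S100a6 and Spp1 were called higher, as were 1.76% of all genes, and between PDX and Old none of the 17 was called.

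**Figure D5:**
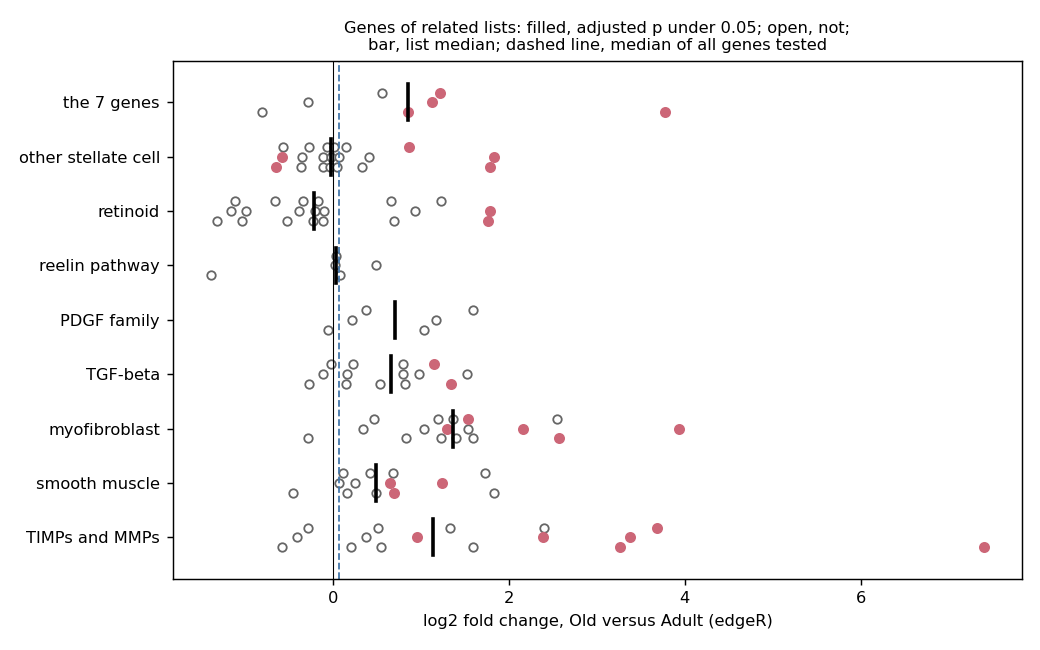
Log2 fold changes between Old and Adult of the genes of 9 lists, with filled points for adjusted p under 0.05, a bar at each list's median and a dashed line at the median of all genes tested (0.07). The median of the myofibroblast list lies at 1.37 and that of the other stellate cell genes at -0.03.

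TGF-beta signalling, which drives the activated state, had 2 of 14 genes called higher in Old mice, the ligand Tgfb3 (log2 fold change 1.34) and the latent-complex protein Ltbp1 (1.15), and 0 lower. For these and the next lists, 4.71% of all genes were called higher and 2.07% lower. Tgfb1 differed by 0.79 (adjusted p = 0.166). Of 11 tested genes for SRF, its cofactors and its targets, Egr1 alone was called higher (1.63), and Srf itself differed by 0.14 (adjusted p = 0.623). Among 9 other intermediate filament genes, beside which Des can be set, Vim alone was called.

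Metalloproteinases and their inhibitors, the system in which Timp1 acts, had 16 genes tested, of which Mmp3, Mmp7, Mmp8 and Mmp13 passed the filter only through the mice of 22 months. Of the other 12, 3 were called higher in Old mice and 0 lower, at a median log2 fold change of 0.52, where 4.04% of all genes with at least 1 Adult mouse at the filter's level were called higher. Timp2 rose from 18.8 ± 0.71 to 36.3 ± 13.7 CPM without overlap of the groups, as did 3.65% of all genes tested. Mmp12, the macrophage elastase, rose from 0.388 ± 0.210 to 4.94 ± 2.88 CPM, and Cd63, a tetraspanin that binds Timp1, from 3.45 ± 0.59 to 18.0 ± 17.8 CPM with 48.0 CPM in O5. Mmp3, Mmp7 and Mmp8 were also called, with no Adult mouse at the level of the filter. Timp3 (log2 fold change 0.37, adjusted p = 0.284), Mmp2 (1.59, adjusted p = 0.0601), Mmp13 (2.40, adjusted p = 0.0875) and Mmp14 (0.51, adjusted p = 0.108) were not called, and Timp4 did not pass the filter. Mmp12 alone of this list was called between PDX and Adult (3.81, adjusted p = 0.0064).

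Smooth muscle genes give the levels against which Acta2, Tagln and Des can be read, since vessel walls share them. Of 13 tested, 3 were called higher in Old mice, namely Tpm1 (log2 fold change 0.69), Synpo2 (1.24) and Mustn1 (0.65), and 0 lower, with a median of 0.49. Among all genes 4.71% were called higher and 2.07% lower. Myh11, the smooth muscle myosin that stellate cells have little of, was at 9.13, 7.05, 8.26, 15.8 and 16.8 CPM in O1 to O5 against 7.37 to 10.4 CPM in Adult mice (log2 fold change 0.42, adjusted p = 0.286). O4 and O5 were its highest mice, as they were for Acta2. Cnn1 (1.73, adjusted p = 0.0608), Actg2 (1.83, adjusted p = 0.0578), Myl9 (0.68, adjusted p = 0.10) and Tagln2, a paralog of Tagln (0.75, adjusted p = 0.0559), were not called. The part of smooth muscle in the rise of Acta2 and Tagln was not tested.

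Markers of other cells also differed between the groups. The 8 neutrophil markers had summed levels of 2.32 to 6.25 CPM in Adult, 10.1 to 193.2 CPM in Old and 14.7 to 64.9 CPM in PDX mice. Of the 7 tested, Mpo, Elane and Camp passed the filter only through the mice of 22 months. Between Old and Adult 2 of 8 macrophage markers were called higher, as were 2 of the 7 lymphoid markers for which at least 1 Adult mouse reached the level of the filter. The pancreas markers summed to 17.0 to 18.7 CPM in Adult, 2.85 to 349.3 CPM in Old and 12.5 to 74.0 CPM in PDX mice, with 280.4 and 349.3 CPM in O3 and O4. The cholangiocyte markers had 0 of 6 called, with summed levels of 7.71 to 11.8 CPM in Adult and 11.4 to 52.3 CPM in Old mice. One endothelial marker of 8, Vwf, was called higher and 1 hepatocyte marker of 8, Cyp2e1, lower. Between Old and Adult 4.71% of all genes were called higher and 2.07% lower. Among genes with at least 1 Adult mouse at the filter's level, 4.04% were called higher. O2 and O5, which led Timp1, were also the highest Old mice for the summed neutrophil markers, at 193.2 and 33.6 CPM. The part of these cells in the levels of the 7 genes was not tested.

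Among the 10 mice that were 22 months old at the start, no relation between 2 of the 7 genes passed the test, which does not show that there was none. Of 21 pairs of genes, 0 had an adjusted p below 0.05 for Pearson's r of log2 CPM (permutation tests with 100000 resamples, two-sided, adjusted over the 21 pairs). The largest coefficient was that of Reln and Pdgfrb, with r = 0.78 (permutation p = 0.00572, adjusted p = 0.0836), rho = 0.55 (permutation p = 0.105, adjusted p = 0.367) and r = 0.79 without O2 and O5. Lrat and Pdgfrb had r = 0.75 (permutation p = 0.0111, adjusted p = 0.0836) and rho = 0.59 (permutation p = 0.0810), and r = 0.78 without O3 and O4. Acta2 and Tagln had r = 0.74 (permutation p = 0.01195, adjusted p = 0.0836) and rho = 0.65 (permutation p = 0.0485), and r = 0.43 without O5 and P2, so that relation rested in part on those 2 mice. Lrat and Acta2 gave r = -0.30 (permutation p = 0.420) and rho = -0.47 (permutation p = 0.176).

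The genes most alike to each of the 7 in log2 CPM over all 15 mice, of 13386 genes compared, were Tgfb3 for Acta2 (r = 0.94), Cd14 for Timp1 (r = 0.93) with Col1a1 in the third place (r = 0.92), Adm for Tagln (r = 0.92), Bex3 for Des (r = 0.87), Adamts5 for Pdgfrb (r = 0.92) and Nxt2 for Lrat (r = 0.90). Reln was nearest to Gm8806 and Atp2b4 (r = 0.94 for both). Within the 10 mice of 22 months the nearest were Pkdcc for Acta2 (r = 0.95), Heph for Lrat (r = 0.95) with Ednrb, the endothelin receptor of stellate cells, in the third place (r = 0.93), and Pam for Pdgfrb (r = 0.96). Timp1 had A530017D24Rik (r = 0.97), Notch3 (r = 0.95) and Pdgfra (r = 0.95) as its nearest genes. These coefficients describe these libraries, which also share depth and composition.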

How the data were processed

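Poly(A)-selected, strand-specific libraries of 15 livers were sequenced. The authors aligned reads with STAR (version 2.6.0c) to mm10 and made counts per Ensembl gene from unique proper pairs with featureCounts (Subread 1.6.2). The counts were deposited raw. A companion table of the authors holds log2-scale values made by variance stabilization in DESeq2 (release 1.23.10). Of 55450 gene IDs, 55190 received a symbol from GENCODE M21 (GRCm38), and 0 columns lacked a sample.

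Counts were filtered with filterByExpr (minimum count 10, minimum total 15), scaled with TMM and fitted with edgeR (version 4.0.16, R 4.3.3) by the quasi-likelihood test, 1 coefficient per group. The alternatives were DESeq2 (version 1.42.0), its size factors in edgeR, no filter, the 2 groups alone, a replicate block, each mouse left out, O2 and O5 left out, and exact two-sided permutation tests on the deposited log2 values, whose smallest possible p with 5 against 5 mice is 0.00794. Correlations used scipy (version 1.17.1) and log2 CPM with a prior count of 2. The steps were tested on simulated data. Euthanasia batches were not analysed here.

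The 7 genes and all lists were chosen with earlier results of these data known. Named from each list were the called genes, at most 4 by smallest p, and a written set of further genes, whether called or not. Acta1, Mmp3, Mmp8 and Postn lie outside that rule and were named after their values were seen. The split of genes by whether any Adult mouse reached the level of the filter (the minimum count at the median library size) was chosen after the values were seen. The values of some further genes of the lists are not reported here.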

Additional observations from a re-analysis of the deposited data

Results flagged for a closer look

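A mouse was marked where its gap to the nearest of its group exceeded Dixon's 95% critical value for 5 mice (0.71), which chance gives in about 1 of 20 groups. Of 87 groups tested, over the 7 genes and the sums of 22 lists, 10 were marked. Pdgfrb in P3 was 25.9 CPM against 12.8 to 15.2 CPM in the other PDX mice. P3 also had the highest sum of the 20 other stellate cell genes, 893.8 CPM against 595.5 to 630.7 CPM, of the myofibroblast genes, 606.3 CPM against 254.5 to 306.03 CPM, and of the portal fibroblast and mesothelial genes, 77.6 CPM against 35.3 to 39.7 CPM. In O2 the summed macrophage markers were 2206 CPM against 281.5 to 524.7 CPM in the other Old mice, and the summed neutrophil markers 193.2 CPM against 10.1 to 33.6 CPM. The summed cholangiocyte markers of O5 were 52.3 CPM against 11.4 to 22.9 CPM in the other Old mice. The summed skeletal muscle markers of O4 were 227.6 CPM against 0.721 to 54.8 CPM. In P5 the summed pancreas markers were 74.0 CPM against 12.5 to 19.4 CPM in the other PDX mice, while the Old mice O3 and O4, not marked, had 280.4 and 349.3 CPM. The TGF-beta genes of A2 summed to 256.1 CPM against 244.8 to 246.5 CPM in the other Adult mice.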

How the results depend on the processing

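The calls of Des, Acta2 and Timp1 between Old and Adult rested on the full set of Adult mice, and that of Tagln did not. The number of genes called there was 1072, and it was 665 without the low-count filter, 105 with only those 2 groups, 2604 with DESeq2 and between 156 (without A5) and 2178 (without O3) with 1 mouse left out. Between PDX and Old it was 0, and 1 with DESeq2. Between PDX and Adult it was 420, and 4529 with only those 2 groups, 4004 without O2 and O5, 1384 with DESeq2 and between 166 and 585 with 1 mouse left out. The cause was not tested.

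On the log2 scale between Old and Adult, Des was 0.88 (adjusted p = 0.107) and Acta2 1.15 (adjusted p = 0.0972) with only those 2 groups, and Timp1 had no value there because it did not pass the filter. Without O2 and O5, Des was 0.80 and Timp1 1.40. Lrat was called by DESeq2 at -0.81. The exact permutation test on the deposited log2 values, which is not adjusted over genes, gave -0.83 (exact p = 0.0397). With 1 mouse left out, Des ran from 0.67 to 0.98, Lrat from -1.0 to -0.63, Acta2 from 0.81 to 1.29 and Timp1 from 2.51 to 4.09.

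Between PDX and Old, without O2 and O5, the differences turned positive at 0.0696 for Lrat, 0.0142 for Pdgfrb and 1.26 for Timp1, and on the deposited log2 values Lrat was 0.00186. With 1 mouse left out Lrat ran from -0.19 to 0.14, Pdgfrb from -0.46 to 0.0570 and Timp1 from -1.62 to 0.13.

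Between PDX and Adult, genes not called by the fit of all mice were called with only those 2 groups (Des 0.52, Lrat -0.85, Reln -0.44, Acta2 0.58, Tagln 0.81), without O2 and O5 (Lrat -0.84, Acta2 0.59, Timp1 2.66, Tagln 0.82), with DESeq2 (Lrat -0.86, Timp1 2.67, Tagln 0.80) and with an exact permutation test below 0.05 on the deposited log2 values (Des 0.48, Lrat -0.82, Reln -0.46, Acta2 0.51, Timp1 1.06, Tagln 0.70). With the longest transcript as length, the Adult levels of Des, Reln and Tagln were 2.89, 5.20 and 6.48 RPKM.

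Same-numbered mice are different animals and did not vary together (mean correlation of deviations -0.168 between Old and Adult, 0.0920 between PDX and Old and 0.0310 between PDX and Adult). With the replicate number as a block, 237 genes were called between Old and Adult, and the log2 fold changes were 0.83 for Des (adjusted p = 0.103), 1.04 for Acta2 (adjusted p = 0.0854), 3.19 for Timp1 (adjusted p = 0.0853) and 1.21 for Tagln (adjusted p = 0.0511), none of them called.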

Other observations

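The labels give each mouse a frailty index, a score of visible health deficits, and its relation to the 7 genes was computed over the 10 mice of 22 months, a test chosen after the levels were seen. Acta2 had r = 0.83 (permutation p = 0.00756, adjusted p = 0.0529 over 7 genes) and rho = 0.62 (permutation p = 0.0606, adjusted p = 0.341). The index of O5 (0.56) lay farthest from the median, and those of O4 and P1 tied for the next place. For Acta2 r was 0.27 without O4 and O5 and 0.41 without O5 and P1, so the relation rested on these mice. Tagln had r = 0.59 (permutation p = 0.0609, adjusted p = 0.184) and Reln r = -0.58 (permutation p = 0.0806, adjusted p = 0.184), which became 0.28 and -0.04 without O4 and O5 and -0.03 and -0.38 without O5 and P1. None of the 7 had an adjusted p below 0.05, and the relation was not computed within Old or PDX alone, each of 5 mice.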
